A study of Mus musculus with 11 samples.

Results

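The distal Hox gradient is described here in mouse forelimb buds taken at E10.5, across 11 of the 11 RNA-seq libraries of the series. Each library was given a score, the mean log2 CPM (counts scaled to the library total, with a prior count of 2) of Hoxa13, Hoxd11, Hoxd12 and Hoxd13, so the order of the libraries was chosen by the measured values of these 4 genes and is a description with no test. Every other gene was then regressed on the score with genotype in the model. The mutant group (6 libraries) was Gmnn f/f; Prx-Cre, with 2 floxed alleles of Gmnn, and the control group (5 libraries) was Gmnn +/f; Prx-Cre, with 1 floxed allele. Both groups carried the Prx-Cre transgene, which drives Cre recombinase in limb bud mesenchyme, and were on a C57BL/6 background. No library without the transgene or without a floxed allele was analysed here, and Cre from this driver does not act in limb ectoderm, blood or migrating muscle precursors. Gmnn encodes Geminin, an inhibitor of the replication licensing factor Cdt1, and the title of the series names a role for it in Hox gene regulation during limb patterning.

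As background, the HoxA and HoxD clusters are switched on in the limb bud in the order of their genes along the chromosome. The genes at the 3' end act early and proximally, and the 5' genes act later and more distally. Hoxd11 to Hoxd13 start in the posterior distal bud and later spread through the digit-forming region, while Hoxa13 starts late and marks the future hand. A bud that is older, or was dissected with less proximal tissue, is therefore known to give more RNA of these genes.

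The total count per library was 14721181 to 19733288. Gmnn was 139 to 237 CPM in controls and 99.9 to 136 CPM in mutants, so the groups did not overlap. By their titles the embryos came from 4 litters, lettered here from A to D. Controls 1 and 2 shared litter A with mutants 1 and 2, and control 3 shared litter B with mutant 6. Control 4 and mutant 5 were of litter C, and control 5 was a littermate of mutants 3 and 4 in litter D. The labels say that pairs were matched for litter and for somite number but give no somite count for an embryo. More distal tissue in a bud and a later stage of the embryo thus cannot be told apart here, and in whole buds neither can a change in the share of cells and a change in RNA per cell.

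The gene starts of Hoxa13 and of the long noncoding RNA Hottip are shown first, because both lie at the 5' end of the HoxA cluster and had their most reads in the same 2 libraries. Hoxd13 and Hoxd11 are shown for the HoxD genes of the score, with Hoxd12 left out, and Hoxb1 as the Hox gene with the steepest fall. The windows are RefSeq entries for GRCm38.p6 with 250 bases before and 50 after an annotated start. They are chr6:52260831-52261130 on the minus strand for Hoxa13, chr6:52262525-52262824 on the plus strand for Hottip, chr2:74667975-74668274 on the plus strand for Hoxd13, chr2:74679308-74679607 on the plus strand for the first of 2 annotated starts of Hoxd11, and chr11:96365508-96365807 on the plus strand for Hoxb1. Capitals mark CAATAAA or TCGTAAA, the core letters that paralogue group 13 Hox proteins are known to bind, searched on both strands.
Hoxa13: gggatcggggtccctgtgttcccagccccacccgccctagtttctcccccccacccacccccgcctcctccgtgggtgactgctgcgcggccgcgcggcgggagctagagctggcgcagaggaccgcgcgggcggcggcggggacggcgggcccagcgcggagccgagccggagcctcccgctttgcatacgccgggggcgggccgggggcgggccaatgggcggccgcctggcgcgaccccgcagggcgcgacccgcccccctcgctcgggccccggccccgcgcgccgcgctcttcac
Hottip: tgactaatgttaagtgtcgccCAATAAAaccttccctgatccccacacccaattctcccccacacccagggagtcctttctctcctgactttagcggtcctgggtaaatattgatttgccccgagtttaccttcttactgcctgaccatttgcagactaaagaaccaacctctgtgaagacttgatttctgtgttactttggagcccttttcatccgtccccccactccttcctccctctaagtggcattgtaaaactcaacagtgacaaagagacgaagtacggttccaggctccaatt
Hoxd13: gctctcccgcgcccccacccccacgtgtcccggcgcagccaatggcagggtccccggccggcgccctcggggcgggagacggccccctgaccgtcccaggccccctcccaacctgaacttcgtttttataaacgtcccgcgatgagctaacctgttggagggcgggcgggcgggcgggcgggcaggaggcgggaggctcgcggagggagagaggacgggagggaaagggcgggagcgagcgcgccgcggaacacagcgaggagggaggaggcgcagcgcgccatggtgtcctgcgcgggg
Hoxd11: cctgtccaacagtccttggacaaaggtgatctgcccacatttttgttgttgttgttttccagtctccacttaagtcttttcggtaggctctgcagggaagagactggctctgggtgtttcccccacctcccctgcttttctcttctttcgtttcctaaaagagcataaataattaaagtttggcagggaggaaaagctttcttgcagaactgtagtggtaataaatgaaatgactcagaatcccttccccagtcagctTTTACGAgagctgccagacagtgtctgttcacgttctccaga
Hoxb1: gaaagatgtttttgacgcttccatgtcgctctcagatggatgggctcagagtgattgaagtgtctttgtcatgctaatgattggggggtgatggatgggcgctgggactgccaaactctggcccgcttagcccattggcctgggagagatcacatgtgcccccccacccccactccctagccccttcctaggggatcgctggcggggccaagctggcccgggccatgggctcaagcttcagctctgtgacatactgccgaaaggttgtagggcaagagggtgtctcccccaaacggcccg
The starts of Hoxa13 and Hottip lie 1895 bases apart and point away from each other. The Hoxa13 window has 81% G and C and 45 CG dinucleotides, against 47.7% and 6 in the Hottip window and 59.3% and 10 in the Hoxb1 window. The Hottip window holds 1 match to CAATAAA, and the Hoxd11 window shown holds 1 match to TCGTAAA, on the minus strand. The window of the other annotated start of Hoxd11 (chr2:74682073-74682372) holds neither. The Hoxd13 window ends before the counted Hoxd13 gene begins, at 74668310. CAATAAA is in 4.6% of all 32851 RefSeq promoter windows and in 2.43% of the 13916 windows of genes tested, and TCGTAAA in 0.597% and 0.711%. Among windows of genes that rose with the score, 1.76% of 567 held CAATAAA and none held TCGTAAA, which allows a share of up to 0.529%. Among windows of genes that fell, 2.04% of 489 held CAATAAA and 0.818% held TCGTAAA. A match is a string of letters and not a site.

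The score ran from -0.16 to 4.66, a range of 4.82 log2 units. In controls 1 to 5 it was 3.01, 2.49, 4.66, 3.24 and -0.16, and in mutants 1 to 6 it was 3.73, 3.78, 2.54, 0.96, 2.44 and 4.30. The mean was 2.65 ± 1.76 (SD, n = 5) in controls and 2.96 ± 1.22 (SD, n = 6) in mutants, and both groups spanned low and high values. By litter, the mean score was 1.11 in litter D (3 libraries), 2.84 in litter C (2), 3.25 in litter A (4) and 4.48 in litter B (2). Differences between litters held 74.2% of the variance of the score and differences between genotypes 1.31%, and 20.4% was left after both. The 2 lowest libraries, control 5 and mutant 4, came from litter D, and the 2 highest, control 3 and mutant 6, from litter B.

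Hoxa13, needed for hand and foot formation, had the fewest reads of the 4 genes and the largest relative spread. Its counts were 14, 8, 191, 18 and 0 in controls 1 to 5, and 18, 43, 1, 1, 2 and 71 in mutants 1 to 6. The litter B libraries had the most reads in each genotype, and 5 libraries had 8 reads or fewer. Hoxd12 had counts of 288, 180, 712, 393 and 5 in controls 1 to 5, and 569, 383, 237, 20, 165 and 579 in mutants 1 to 6. Hoxd13, which is required for digit shape, had counts of 256, 268, 660, 228 and 45 in the controls and 504, 300, 286, 112, 254 and 462 in the mutants. Hoxd11, which with Hoxa11 patterns the forearm, had counts of 347, 267, 504, 376 and 48 in the controls and 487, 374, 281, 151, 252 and 526 in the mutants. The HoxD genes were thus present in every library, while Hoxa13 went from 0 reads in the lowest library to 191 in the highest.

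**Figure D1:**
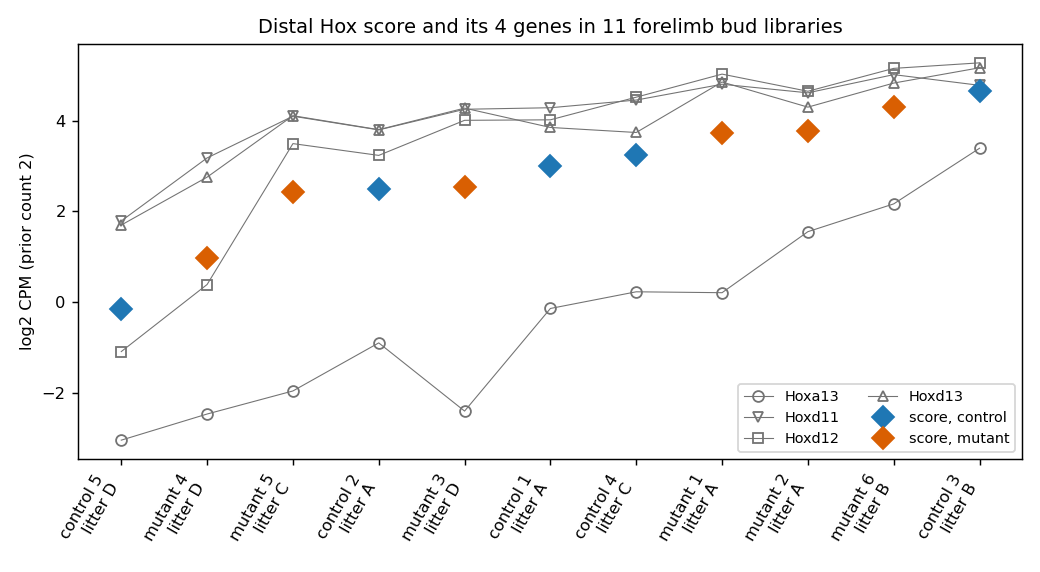
Log2 CPM of Hoxa13, Hoxd11, Hoxd12 and Hoxd13 (open symbols) and their mean, the score (diamonds, blue for control and orange for mutant), in the 11 libraries ordered by score, with the litter under each name. The score runs from -0.16 in control 5 to 4.66 in control 3, with litter D at the low end and litter B at the high end, and both genotypes spread along it.

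Over all genes, more rose steeply with the score than fell steeply. A slope is the log2 change of a gene for a rise of 1 unit in the score, at equal genotype. By edgeR's quasi-likelihood test with Benjamini-Hochberg adjustment over 15817 genes, 611 genes (3.86%) rose and 546 (3.45%) fell at an adjusted p under 0.05, and 3561 had an unadjusted p under 0.05. The median slope was 0.27 among rising genes, -0.16 among falling genes and 0.0048 over all genes tested. A slope of at least 0.5 was found for 159 rising genes, and of at most -0.5 for 48 falling genes. The shares of 3.86% and 3.45% are the background for every count of list members below.

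These calls were made without litter in the model, so they can hold differences between litters. A fit with litter as a block leaves 5 residual degrees of freedom in place of 8. No gene (0%) passed an adjusted p of 0.05 there by edgeR's quasi-likelihood test, the smallest adjusted p being 0.185. In that fit 819 genes (5.18%) had an unadjusted p under 0.05, about the share that chance alone gives. Of the 1157 genes called without the block, 1148 kept the sign of their slope in the blocked fit and 419 of them had an unadjusted p under 0.05 there. The 1157 genes were chosen on the same libraries and score, so both counts are descriptions and no independent test. The median blocked slope was 0.914 times the unblocked one, while the median standard error (SE) was 2.24 times as large. All slopes and adjusted p-values below are from the fit without the block, and blocked slopes are given beside the leading genes.

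Single libraries also carried many calls. Without control 5, the library with the lowest score, 186 genes rose and 112 fell, and without control 3, the library with the highest, 215 rose and 126 fell. The counts were 378 and 330 without mutant 4, 396 and 317 without mutant 6, and 1077 and 1141 without mutant 2. In all 11 fits that left out 1 library, 1136 of the 1157 genes had the same sign and 199 passed the threshold each time. Without the 2 libraries farthest from the median score (control 5 and mutant 4), 89 genes rose and 39 fell, and 116 of these were among the 1157.

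Within the HoxA cluster, the other genes at the 5' end rose with the score. Of 6 such genes tested, 5 rose and none fell, against 3.86% and 3.45% of all genes. The median slope was 0.41 and the blocked median 0.42, against 0.0048 over all genes. The 5 include Hottip, which passed the filter on low counts only with both control 3 and mutant 6 in the fit. They also include Hoxa11 and Hoxa11os, which overlap and are not independent members. Without control 5 and mutant 4 together, 2 of the 6 rose, against 89 of all 15817 genes. Hoxa10 (chromosome 6, 52231197-52240854, minus strand), which patterns the upper limb, was at 35.7 CPM in control 5 and 60.2 CPM in mutant 4, 97.2 to 144 CPM in the 7 libraries in the middle of the order, 144 CPM in mutant 6 and 195 CPM in control 3. Its slope was 0.44 (SE 0.049, adjusted p = 0.000127 by edgeR), with a blocked slope of 0.49. Within litter D it was at 35.7, 60.2 and 98.1 CPM in control 5, mutant 4 and mutant 3, in the order of their scores. The 2 libraries of litter B and the 2 of litter C were also in that order. Litter A was not, with 97.2, 133, 114 and 104 CPM in control 2, control 1, mutant 1 and mutant 2, listed by rising score. Litters B and C each paired a control with a mutant of lower score, so order and genotype cannot be told apart there.

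Hoxa11 (52242106-52245810, minus strand), the HoxA gene of the forearm, was at 11.3 CPM in control 5 and 37.0 CPM in mutant 6, and its slope was 0.26 (SE 0.036, adjusted p = 0.000601 by edgeR). Hoxa11os, transcribed across Hoxa11 from the other strand, was at 13.9 CPM in control 5 and 55.4 CPM in control 3, with a slope of 0.38. These genes overlap in 35% of the exon bases of Hoxa11 and 47.6% of those of Hoxa11os. Reads were counted without strand, so the strand of the counted reads is not known. Those over exons of both genes were left out, so neither count covers the overlap.

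Hottip, a noncoding RNA known to act on the 5' HoxA genes, had 81 reads in all. It had 0 reads in 6 libraries, 2 in control 1, 6 in mutant 2, 7 in mutant 1, 19 in mutant 6 and 47 in control 3. The litter B libraries thus held most of its reads, as they did for Hoxa13. With 6 libraries at 0 its fitted slope depends on the prior count and is not given, and the gene no longer passed the filter on low counts without control 3 or without mutant 6. Evx1, a homeobox gene just beyond Hoxa13 on the chromosome, had a slope of 1.47 (SE 0.28, adjusted p = 0.00625 by edgeR), which was not past the threshold without control 3 (adjusted p = 0.123). Hoxa9, the remaining gene of the list, was at 69.4 to 106 CPM with a slope of -0.06, not past the threshold.

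The HoxD genes next to the score's genes fell. Hoxd8, Hoxd9 and Hoxd10, 3 of 3 tested, had a median slope of -0.20, although Hoxd10 is the direct neighbour of Hoxd11. Hoxd9 (chromosome 2, 74697727-74700208, plus strand), an early proximal gene of the cluster, was at 83.9 and 84.3 CPM in control 5 and mutant 4, 38.7 to 70.3 CPM in the middle 7 libraries, and 33.9 and 22.0 CPM in mutant 6 and control 3. Its slope was -0.39 (SE 0.033, adjusted p = 1.48e-05 by edgeR), with a blocked slope of -0.28. Hoxd9 passed the threshold in all 11 fits without 1 library. The falls of Hoxd10 and Hoxd8 were smaller, with slopes of -0.15 and -0.20. Hoxd10 was not past the threshold without control 3, mutant 4 or mutant 6, its blocked slope was 0.00025, and Hoxd8 was not past it without control 3 or mutant 4. Without control 5 and mutant 4 together, only Hoxd9 of the 3 fell, against 39 of all 15817 genes.

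The HoxB genes, which are not known for a distal limb phase, fell together. Of 9 tested, 8 fell, against 3.45% of all genes. The median slope was -0.40 in both the unblocked and the blocked fit. In the blocked fit 6 of the 9 had an unadjusted p under 0.05, against 5.18% of all genes in either direction. Without control 5 and mutant 4 together, 2 of the 9 fell, against 39 of all 15817 genes. Hoxb1, an early gene of the cluster, was at 24.2 and 14.8 CPM in control 5 and mutant 4, 3.09 to 9.06 CPM in the middle 7 libraries, and 1.97 and 1.36 CPM in mutant 6 and control 3. Its slope was -0.78 (SE 0.087, adjusted p = 0.000119 by edgeR). Hoxb9, the most 5' of the HoxB genes tested, had a slope of -0.65, and Hoxb5 one of -0.38. Hoxb8 had a slope of -0.59 and a blocked one of -0.35. Hoxb2 and Hoxb8 lost the threshold without control 3, control 5 or mutant 4, and Hoxb3, with 52.9% of its exon bases in other genes, had a slope of -0.23 that did not pass it.

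Among the 3' genes of HoxA, 3 of 7 fell, with a median slope of -0.15. Hoxa7 and Hoxa5 fell with slopes of -0.20 and -0.15, Hoxa7 losing the threshold without control 5, and Hoxa5 without any 1 of controls 3, 4 and 5 or mutants 1 and 4. Their blocked slopes were -0.10 and -0.26. Without control 5 and mutant 4 together none of the 7 fell, against 39 of all 15817 genes. Of the 3' HoxD genes, Hoxd1 and Hoxd3 fell, with slopes of -0.68 and -0.52, and Hoxd4 had one of -0.18, not past the threshold. Hoxd1 and Hoxd3 were not past it without control 3 or without control 5, Hoxd3 also without mutant 4, and none of the 3 fell without control 5 and mutant 4 together.

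The HoxC genes moved least in common among the Hox clusters. Of 7 tested, 1 rose and 2 fell, with a median slope of -0.08. Hoxc4 and Hoxc5 fell, with slopes of -0.18 and -0.22, and neither was past the threshold without control 5. Hoxc13, which is known from hair and nails, rose with a slope of 0.61. It was at 2.24 CPM in control 3 and 0.203 to 1.75 CPM elsewhere, and was past the threshold in 6 of the 11 fits without 1 library. Across the clusters the 5' end of HoxA thus rose, while 5 of the 6 HoxD genes tested outside the score and 8 of the 9 HoxB genes fell.

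**Figure D2:**
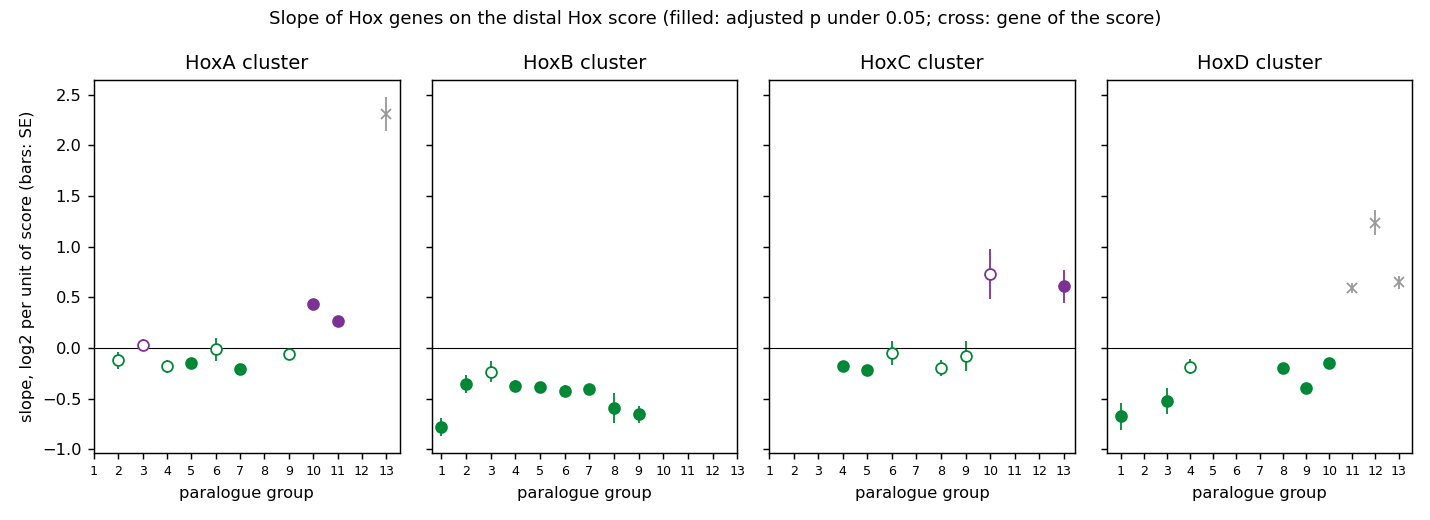
Slope of Hox genes on the distal Hox score (log2 per unit of score, bars show the SE), by paralogue group, 1 panel per cluster. Filled circles passed an adjusted p of 0.05, open circles did not, and grey crosses are the 4 genes of the score, drawn without a test. The 5' HoxA genes Hoxa10 and Hoxa11 lie above 0, and the HoxB genes and Hoxd8 to Hoxd10 lie below it.

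Retinoic acid is made in the flank and degraded in the distal bud, and it is known to favour proximal gene expression. The gene for its main synthesising enzyme fell, and genes for its degrading enzymes rose. Aldh1a2, the synthesising enzyme of the trunk, was at 33.1 and 33.4 CPM in control 5 and mutant 4, 11.8 to 26.6 CPM in the middle 7 libraries, and 8.99 and 2.73 CPM in mutant 6 and control 3. Its slope was -0.57 (SE 0.097, adjusted p = 0.0029 by edgeR), with a blocked slope of -0.51. Cyp26b1, which degrades retinoic acid in the distal bud, was at 16.8 and 13.3 CPM in the lowest libraries, 17.8 to 36.2 CPM in the middle 7, and 50.6 and 70.8 CPM in the highest. Its slope was 0.45 (SE 0.062, adjusted p = 0.000601 by edgeR), with a blocked slope of 0.38.

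The receptors moved in opposite directions. Rarb, itself induced by retinoic acid, fell with a slope of -0.20, and Rarg rose with one of 0.21. Crabp1, a binding protein, fell with a slope of -0.24 (blocked slope -0.09), and Cyp26a1 rose with one of 0.29 (blocked slope 0.48), past the threshold in 5 of the 11 fits without 1 library. In all, 3 of 11 genes of the list rose and 3 fell, with a median slope of 0.01.

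Neither the distal nor the proximal list moved as a whole. Of 14 genes of the distal mesenchyme, 4 rose and 3 fell, with a median slope of 0.05. Wnt5a, a ligand needed for outgrowth, rose with a slope of 0.24, and Tfap2b, a transcription factor also made by neural crest, with 0.38. Sall1 rose with a slope of 0.31 while Sall4, a related zinc finger gene, fell with one of -0.24, and Lhx2, which responds to ridge signals, fell with -0.17 (blocked slope -0.06). None of these last 3 was past the threshold without control 3, and Snai1, a repressor of E-cadherin, fell with a slope of -0.16. Msx1 and Lhx9 had slopes of -0.05 and -0.0035, not past the threshold.

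Of 12 proximal genes, 4 rose and 2 fell, with a median slope of -0.04. Meis2, the classic proximal marker, fell with a slope of -0.14, from 142 CPM in control 5 and mutant 4 to 85.4 CPM in control 3, and was not past the threshold without control 3 or without control 5. Shox2, needed for the upper arm skeleton, was listed as proximal but rose. It was at 20.7 and 25.5 CPM in control 5 and mutant 4, 55.6 to 102 CPM in the middle 7 libraries, and 74.7 and 121 CPM in mutant 6 and control 3. Its slope was 0.51 (SE 0.065, adjusted p = 0.000381 by edgeR), and the blocked slope was 0.62. Scx, a tendon progenitor gene, and Tbx18 rose with slopes of 0.55 and 0.24, and neither was past the threshold without control 3 or without control 5.

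Of 14 genes of the Shh pathway and the posterior limb, 8 rose and none fell, against 3.86% and 3.45% of all genes. The median slope was 0.25 and the blocked median 0.23. Shh, the signal of the posterior margin, was at 0.209 CPM in control 5, 0.772 CPM in mutant 4, 0.47 to 1.89 CPM in the middle 7 libraries, and 1.42 and 2.13 CPM in mutant 6 and control 3. Its slope was 0.58 (SE 0.12, adjusted p = 0.00996 by edgeR), and 28.3% of its exon bases lie in other genes. Shh had 195 reads in all and was not past the threshold without control 3 or without control 5. The receptor Ptch1 and the transcription factor Gli1, both induced by the pathway, rose with slopes of 0.27 and 0.36 (blocked slopes 0.17 and 0.51). Gli1 was at 2.64 CPM in control 5, 7.0 CPM in mutant 4 and 8.25 to 15.9 CPM in the other 9 libraries, so its rise lay at the low end of the score.

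Calls in this list were lost without the low end, as were most calls over all genes. Without control 5 and mutant 4, 0 of its 14 genes passed the threshold, and 89 of all 15817 genes rose. With single libraries left out the count was between 1 (without control 5, where 186 of all genes rose) and 9. Grem1, the Bmp antagonist that links Shh to the ridge, rose with a slope of 0.22 and Jag1, a Notch ligand, with 0.34. Fgf4, a ridge signal maintained by Grem1, rose with a slope of 1.35 (SE 0.26, adjusted p = 0.00735 by edgeR) from 0 to 0.259 CPM in the 4 lowest libraries to between 0.505 and 3.10 CPM in the other 7, and its blocked slope was 2.69. It was the only 1 of 13 genes of the apical ectodermal ridge list to pass the threshold. Hand2, an early posterior gene upstream of Shh, had a slope of 0.02, not past the threshold.

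Of 9 anterior genes, 2 rose and 2 fell. Alx1 fell with a slope of -0.28, from 75.0 CPM in control 5 to 28.1 CPM in control 3. Pax1 rose with a slope of 1.37 (blocked slope 1.08). It lost the threshold without control 3, where it was at 16.2 CPM against at most 3.41 CPM elsewhere. Gli3, the repressor of the anterior bud, had a slope of -0.07, not past the threshold.

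**Figure D3:**
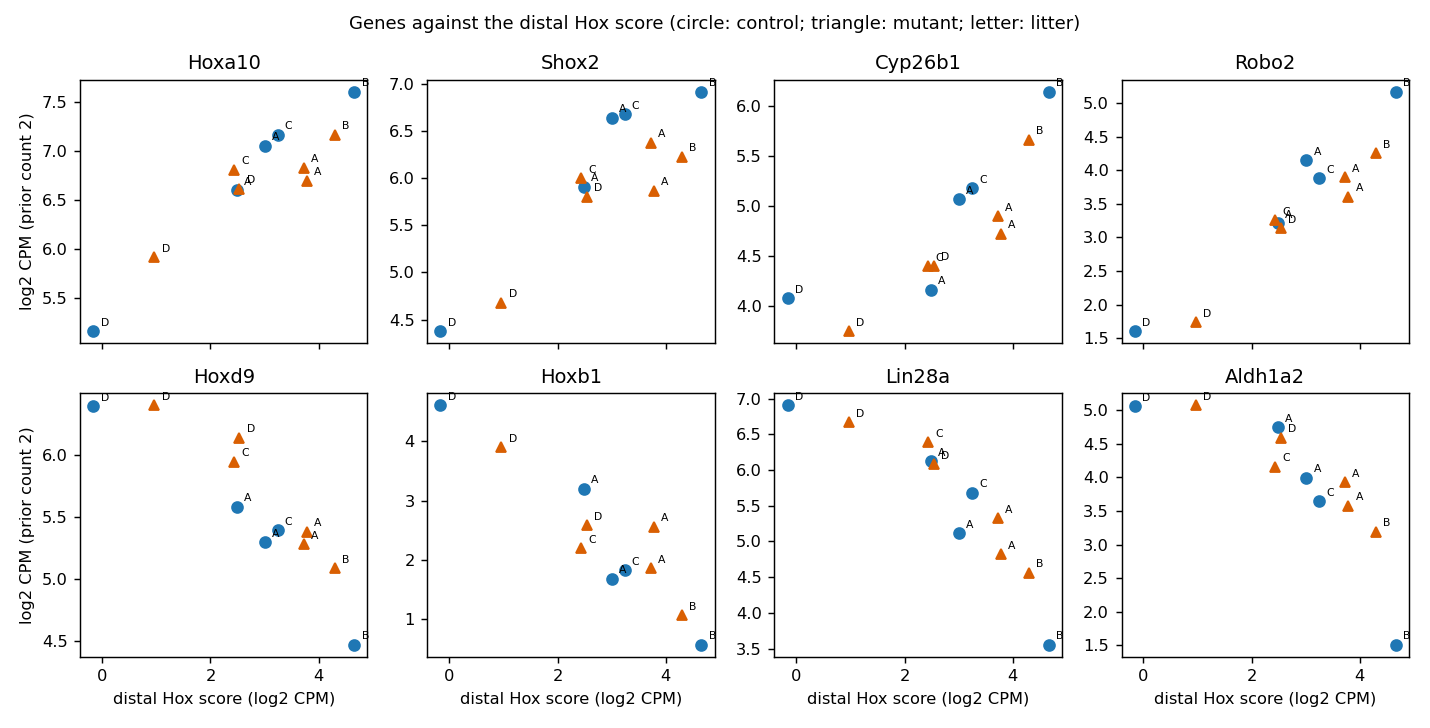
Log2 CPM (prior count 2) of 8 genes against the distal Hox score in the 11 libraries (blue circles for control, orange triangles for mutant, letters for the litter). Hoxa10, Shox2, Cyp26b1 and Robo2 are highest in control 3 at a score of 4.66, and Hoxb1 and Lin28a are highest in control 5 at -0.16.

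Among the listed genes known to change with developmental time, Lin28a had the steepest fall. Lin28a encodes an RNA-binding protein that blocks let-7 processing and declines as embryos mature. It was at 119.8 CPM in control 5 and 102 CPM in mutant 4, 28.1 to 83.6 CPM in the middle 7 libraries, and 23.5 and 11.6 CPM in mutant 6 and control 3. Its slope was -0.64 (SE 0.080, adjusted p = 0.000354 by edgeR), or 8.37-fold over the range of the score, and the blocked slope was -0.58. Within litter D the levels were 119.8, 102 and 67.7 CPM in control 5, mutant 4 and mutant 3, in the order of their scores. The 2 libraries of litter B and the 2 of litter C also fell in that order. Litter A did not, with 69.6, 34.6, 39.9 and 28.1 CPM in control 2, control 1, mutant 1 and mutant 2, listed by rising score. In litters B and C the mutant had the lower score, so order and genotype cannot be told apart there.

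Its relative Lin28b fell with a slope of -0.25, from 73.2 CPM in control 5 to 29.3 CPM in control 3. In the list of 8 genes, 3 fell and 1 rose, with a median slope of -0.01. The third to fall, Trim71, had a slope of -0.21 and passed the threshold in 3 of the 11 fits without 1 library, and Hmga2, a let-7 target, rose with a slope of 0.09 and passed it in 7. Nr6a1 and Prtg, among the 546 genes that fell, are outside this list and were chosen after their values were seen. Their direction follows from that choice. Nr6a1, a nuclear receptor of the early trunk, fell with a slope of -0.63 from 32.3 CPM in control 5 to 4.91 CPM in control 3, and Prtg, a cell surface receptor of early mesoderm, with -0.50 from 144 to 24.4 CPM. Of the list, Lin28a and Lin28b passed the threshold in all 11 fits without 1 library and also without control 5 and mutant 4 together. The chosen genes Nr6a1 and Prtg did so too.

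The genes whose pattern was most like the score were not Hox genes. Likeness was the Pearson partial correlation with the score given genotype, over 11 libraries that share litters, among genes with a mean of at least 5 CPM. The 6 highest were Bmp1 (0.98), Robo2 (0.98), Bcl11b (0.98), Ccdc109b (0.98), Col6a3 (0.97) and Bcl11a (0.97). Robo2 (chromosome 16, 73892306-74411825, minus strand), a receptor for Slit guidance proteins, was at 2.92 and 3.21 CPM in control 5 and mutant 4, 8.66 to 17.7 CPM in the middle 7 libraries, and 19.0 and 35.9 CPM in mutant 6 and control 3. Its slope was 0.73 (SE 0.055, adjusted p = 1.48e-05 by edgeR), which is 11.5-fold over the range of the score, and the blocked slope was also 0.73.

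Bcl11b and Bcl11a, a pair of related zinc finger transcription factors, rose with slopes of 0.71 and 0.49. The blocked slope of Bcl11a was 0.53. Bcl11a, Ccdc109b, Myc and Shox2 were among the genes that shared the smallest adjusted p of the blocked fit, 0.185 by edgeR. Of the 6 most opposite, 5 are Myc (-0.97), Rpl10a (-0.97), Slc16a3 (-0.97), Hoxd9 (-0.97) and Amica1 (-0.96). Myc, a driver of growth, fell with a slope of -0.26 from 109.5 CPM in control 5 to 44.0 CPM in control 3, and Slc16a3, a lactate transporter, with -0.36 from 81.1 to 22.4 CPM. Without control 5 and mutant 4 these 11 partial correlations were 0.92 to 0.98 for the rising genes and -0.98 to -0.86 for the falling ones. The genes were picked as extremes over libraries that include the remaining ones, so high values follow in part from the choice.

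The steepest slopes belonged to genes of low level. Those that rose most steeply with a mean of at least 1 CPM were Gabrp, Agtr2, Evx1os, Pax1, Fgf4, Tmem163, Ly6g6e and Lgals3, with slopes of 1.08 to 1.69. The blocked slopes of Gabrp, Agtr2, Evx1os and Ly6g6e were 1.20, 0.84, 0.90 and 1.75, against 1.69, 1.59, 1.51 and 1.13. Evx1os, the noncoding neighbour of Evx1, was at 0.209 CPM in control 5 and 11.9 CPM in control 3, and Agtr2, an angiotensin receptor, at 0.209 and 12.4 CPM. Lgals3 passed the threshold in 3 of the 11 fits without 1 library, and its highest value was 6.42 CPM in mutant 2. Those that fell most steeply were Lhx1os, Csn3, Acta1, Cdx1, Hoxb1, Wfikkn1, Car4 and Etv2, with slopes of -1.07 to -0.68. Csn3 and Etv2 had blocked slopes of -0.62 and -0.40, against -0.98 and -0.68.

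Cdx1, a regulator of trunk Hox genes, was at 11.8 CPM in control 5, 8.01 CPM in mutant 4, 0.458 to 3.25 CPM in the middle 7 libraries, and 1.05 and 0.654 CPM in mutant 6 and control 3. Etv2, which starts the blood vessel lineage, was at 16.2 and 14.5 CPM in the lowest libraries and 2.16 to 6.43 CPM in the other 9. Acta1, an actin of muscle, was at 25.9 CPM in control 5, 4.77 CPM in control 1 and at most 1.5 CPM elsewhere, and was not past the threshold without control 5 or without control 3. Mab21l2, Igf1, Nfia and Vcam1, chosen after their values were seen, rose with slopes of 0.70, 0.54, 0.48 and 0.55. The blocked slope of Igf1 was 0.24. Mab21l2 was at 8.21 CPM in control 5 and 121 CPM in control 3, and 36% of its exon bases lie in Lrba.

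Markers of macrophages, which enter the limb from the blood, rose with the score. Of 10 tested, 8 rose and none fell, against 3.86% and 3.45% of all genes. The median slope was 0.71 and the blocked median 0.58. In the blocked fit 5 of the 10 rose at an unadjusted p under 0.05, against 450 of all 15817 genes. Csf1r, the receptor that macrophages depend on, was at 0.209 CPM in control 5, 0.831 CPM in mutant 4, 1.22 to 3.21 CPM in the middle 7 libraries, and 3.26 and 3.71 CPM in mutant 6 and control 3. Its slope was 0.70 (SE 0.11, adjusted p = 0.0012 by edgeR). Tyrobp, a signalling adaptor, and Cx3cr1, a chemokine receptor, had slopes of 0.72 and 0.68 (blocked slopes 0.67 and 0.42), and Adgre1, which encodes F4/80, had one of 1.59 with 0 reads in 2 libraries.

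The summed level of the 10 macrophage genes was 7.72 to 36.9 CPM in controls and 14.4 to 54.1 CPM in mutants. It was 7.72 and 14.9 CPM in control 5 and mutant 4, 13.0 to 47.0 CPM in the middle 7 libraries, and 54.1 and 36.9 CPM in mutant 6 and control 3. Without control 5 and mutant 4 together, 2 of the 10 rose, against 89 of all 15817 genes. The part of these cells in the slopes of other genes was not tested.

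Of 10 genes of migrating muscle precursors, 3 rose (Myf5, Myod1 and Msc, all muscle regulators), with a median slope of 0.10 and a blocked median of -0.07. The blocked slopes of Myf5, Myod1 and Msc were 0.10, 0.97 and 0.19, against 0.64, 1.81 and 0.86. Myod1 had 75 reads in all and 0 in 6 libraries, and none of the 3 was past the threshold without control 3. Of 12 genes of contractile muscle, 2 fell, Acta1 and Des, against 3.45% of all genes. This list had a median slope of -0.37 and a blocked median of -0.81. In the blocked fit 5 of the 12 fell at an unadjusted p under 0.05, against 369 of all 15817 genes. Neither Acta1 nor Des was past the threshold without control 3. Pax3 and Lbx1, which define the migrating precursors, had slopes of -0.06 and -0.16, not past the threshold.

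Of 8 cartilage genes tested, 3 rose and 1 fell. Sox9, the master regulator of cartilage, rose with a slope of 0.32 from 41.2 CPM in control 5 to 187 CPM in control 3. Runx2, a bone regulator, rose with 0.70 (blocked slope 0.37), and Col9a1, a collagen of cartilage, with 0.43. None of these 3 was past the threshold without control 3, and Hapln1, a matrix link protein, fell with a slope of -0.19. Of 14 genes of the surface ectoderm, 3 rose (Krt5, Grhl3 and Krt14, with slopes of 0.29, 0.35 and 0.40), and of 12 genes of endothelium 2 fell (Egfl7 and Kdr, with -0.16 and -0.17). Grhl3, Krt14, Egfl7 and Kdr were not past the threshold without control 3.

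No gene passed the threshold among 3 embryonic globins, 4 adult-type globins, 7 other red cell genes and 7 flank and body wall genes. The flank genes had a median slope of -0.27, and their summed level was 57.2 and 73.3 CPM in control 5 and mutant 4, 36.1 to 123 CPM in the middle 7 libraries, and 19.2 and 10.5 CPM in mutant 6 and control 3. The part of flank tissue was not tested. Of 8 forelimb mesenchyme genes, Tbx4 rose and Twist1 fell, neither past the threshold without control 3 or without control 5. The labelled tissue was present in every library, with Tbx5, the forelimb determinant, at 64.2 to 123 CPM and Prrx1 at 199.8 to 313 CPM. Neither of the latter passed the threshold, with slopes of 0.09 and 0.10, and of 12 proliferation genes only Ccne1 did, falling with a slope of -0.12 (blocked slope -0.18) and not past it without control 3 or without control 5.

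**Figure D4:**
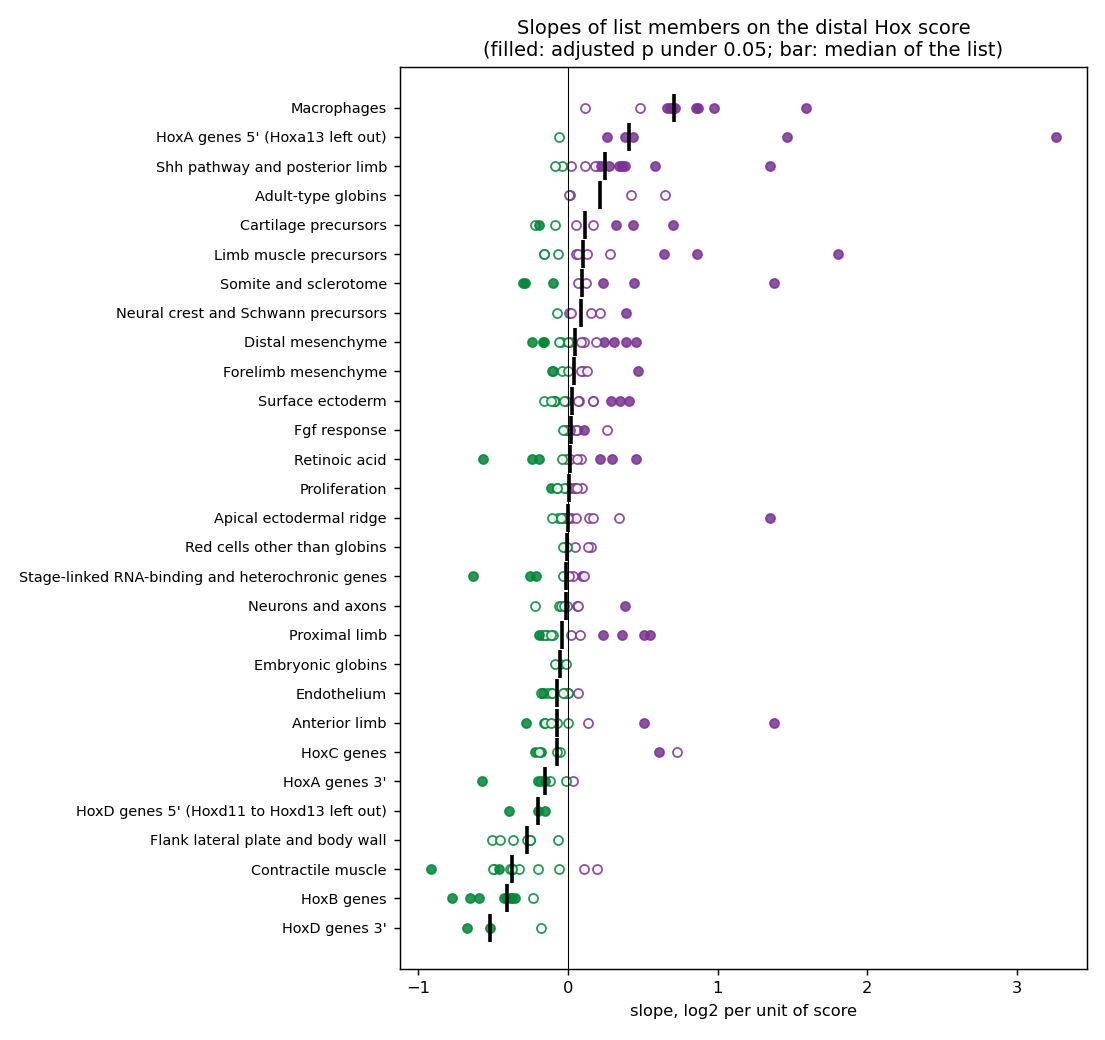
Slope on the distal Hox score (log2 per unit of score) of each tested member of 29 gene lists, 1 row per list in the order of the list medians, which are drawn as black bars. Filled circles passed an adjusted p of 0.05 over all genes. The macrophage list has the highest median, 0.71, and the 3' HoxD and HoxB lists the lowest, -0.52 and -0.40.

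The slopes were also fitted in each genotype alone, which share litters but no library. In controls alone 684 genes rose and 576 fell, and in mutants alone 39 rose and 18 fell. Of 1253 genes called in controls and also fitted in mutants, 1021 (81.5%) had the same sign in mutants, against 61.6% of all 14563 genes with a slope in both. All 55 genes called in mutants and also fitted in controls had the same sign in controls, and 46 were called in both. The control slopes rest on control 5, with a score of -0.16 against 2.49 for the next control.

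A test of whether slopes differed by genotype found no gene (0%) at an adjusted p under 0.05 by edgeR's quasi-likelihood test, with 837 genes at an unadjusted p under 0.05. Robo2 had a slope of 0.76 in controls and 0.69 in mutants, Lin28a -0.61 and -0.67, and Hoxa10 0.52 and 0.30. A call of no difference in slope at this sample size does not show that the slopes were equal. Gmnn itself had a slope of -0.13 at equal genotype (SE 0.036, adjusted p = 0.0472 by edgeR), and was past the threshold in 3 of the 11 fits without 1 library.

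**Figure D5:**
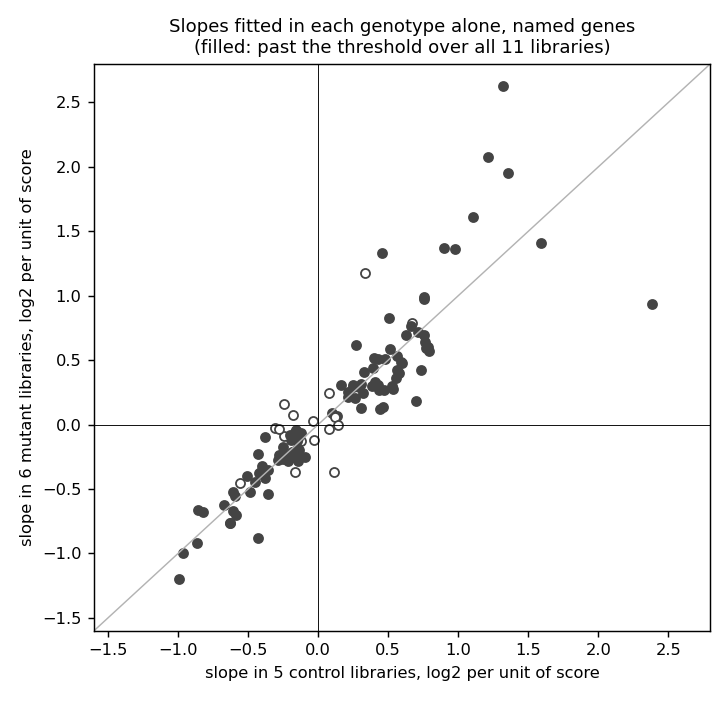
Slope on the distal Hox score in the 6 mutant libraries against that in the 5 control libraries (log2 per unit of score in each) for 121 named genes fitted in both, with the line of equal slopes in grey. Filled circles are the 104 genes past the threshold over all 11 libraries, which were chosen on the same libraries, and all 104 have the same sign in both genotypes.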

How the data were processed

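RNA was measured in forelimb buds of 5 control and 6 mutant embryos, from libraries made after ribosomal RNA depletion. The authors deposited unnormalized counts of reads for each gene name, made with featureCounts on mm10 and GENCODE M9 at a mapping quality of at least 10, per the file headers. The header sets no option for strand, read pairs or multi-mapping reads, so overlapping genes are not separated and reads over exons of several genes were left out by the tool's default. Reads were aligned with STAR 2.5.4b, per the submitters' processing notes. The header command lists 12 alignment files, and the 11 libraries with a column were analysed here.

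From the counts, CPM and log2 CPM (prior count 2) were computed with TMM scaling in edgeR 4.0.16 (R 4.3.3). Genes were kept by filterByExpr, which left 99.9% of the counts. Each gene was fitted with genotype and score by edgeR's quasi-likelihood test (two-sided, 8 residual degrees of freedom), with Benjamini-Hochberg adjustment over 15817 genes. The 4 genes of the score were left out. Slopes in each genotype, and a score by genotype term, were fitted the same way. The procedure was tested on simulated counts with known slopes. These held no litter or genotype effect, so its error rate with differences between litters was not tested.

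The labels give litters, which pair the embryos. Deviations from group means correlated across genes at -0.16 to 0.37 (median 0.13) in 8 pairs from the same litter and -0.33 to 0.17 (median -0.02) in 22 pairs from different litters. Over 25 pairs of libraries of 1 group, chi-square per degree of freedom was at least 7.04, so none was a copy of another.

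The genes of the score and the gene lists were chosen with earlier results of these data known, and support no claim of independence. Genes were named by rule: all Hox genes tested, up to 4 genes past the threshold per list, the 8 steepest each way (mean of at least 1 CPM, same sign in all 11 fits without 1 library) and the 6 most and least like the score (mean of at least 5 CPM). Genes outside it were chosen after their values were seen, among them Shh, Gli1, Grem1, Sall1, Sall4, Lhx2, Scx, Cyp26a1, Evx1 and all values printed for list genes not past the threshold. Xist, Y-linked and predicted genes were left out, and some genes that the rule names are not reported here. Gene coordinates and exon overlaps are from the annotation of the counts, GENCODE M9 on mm10, the same assembly as GRCm38. Transcripts of GENCODE M21 gave the runs of T bases used below. Alternatives were other scalings and filters, DESeq2 1.42.0, limma-voom (limma 3.58.1), a litter block, no genotype term, other scores, left-out libraries and litters, and a covariate for reads of genes with T runs of at least 18 bases.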

Additional observations from a re-analysis of the deposited data

Results flagged for a closer look

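Within each genotype, the gap between the most extreme library and its neighbour was compared with the range of the group for 128 measures, the score and its genes left out. Over these 256 groups about 1 in 20, or 12.8, would stand out by chance, and 10 values did, so their number is no more than chance gives. Most measures were genes named for their slope on the score, so that values at its ends follow from the choice of genes. Mutant 4 was low for Shox2 (log2 CPM 4.68), Gli1 (2.83) and Grem1 (3.54), and high for Hoxd3 (0.628). Control 5 was low for Gli1 (1.47) and high for Hoxc4 (4.04) and Twist1 (6.18). Control 3 was high for Hottip (1.42), and mutant 6 was low for Upk3b (1.56), a gene of body wall mesothelium. Mutant 2 had the highest share of haemoglobin reads, 5.44%, against 1.34% to 3.30% in the other libraries, and its score of 3.78 was not extreme.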

How the results depend on the processing

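Counts of rising and falling genes moved by less than 1.5 times with RLE or upper-quartile scaling, no filter or a stricter one on low counts, limma-voom, a lower prior count, z-scores, a score without Hoxd12 or without Hoxa13, the exclusion of haemoglobin, ribosomal RNA and mitochondrial genes, the T run covariate, and controls alone. DESeq2 called 858 rising and 854 falling genes. Without genotype in the model there were 351 and 226, with a score from Hoxa13 alone 328 and 284, in mutants alone 39 and 18, without the 2 libraries farthest from the median score 89 and 39, without litter D 53 and 19, and without litter B 111 and 69. With litter as a replicate block there were 0 and 0, and the blocked fit called no gene among those named. Leaving out 1 library at a time gave 186 to 1077 rising genes, 112 to 1141 falling genes and 0 to 1 genes whose slope differed by genotype. That last count was 2 with no filter on low counts. Removing litter B or D and the T run covariate were chosen after seeing the data. The slope of Hoxd10 was 0.00025 with the replicate block, and that of Twist1 was 0.0043 without the 2 farthest libraries and 0.027 without litter D, all reversed in sign. The cause was not tested. With 11 libraries in 4 litters, few degrees of freedom separate the score from litter, and for genes with under 100 reads in all, such as Hottip and Myod1, counting error limits the slope.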

Other observations

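Markers of the somite and its derivatives split by gene. Of 8 tested, 3 rose and 3 fell, with a median slope of 0.09 and a blocked median of -0.07. Meox2, a homeobox gene that muscle precursors keep in the limb, rose with a slope of 0.44 (SE 0.060, adjusted p = 0.000601 by edgeR's quasi-likelihood test), from 17.0 CPM in control 5 and 13.1 CPM in mutant 4 to 66.9 CPM in control 3. Its relative Meox1, a gene of the early somite, fell with a slope of -0.29, from 51.5 CPM in control 5 to 14.7 CPM in control 3, and was not past the threshold without control 5. The 2 genes of 1 family thus moved in opposite directions.

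Of 8 neuron and axon genes, only Dcx, a microtubule protein of young neurons, passed the threshold, with a slope of 0.38, and it did not pass without control 3, control 5 or mutant 4. Of 6 neural crest and Schwann precursor genes, only Tfap2b passed it. Of 10 genes that respond to Fgf, only Fgfr1 passed it, with a slope of 0.11, and it did so in 3 of the 11 fits without 1 library. The ridge list had a median slope of 0.00079, and its sign changed with the scaling.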
